A study of Mus musculus with 25 samples.

Results

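The collagen chain genes described here are the 44 mouse genes, of 55487 in the deposited count table, whose symbol is Col, a number, the letter a and a number. They were followed in RNA of Achilles tendons from mice aged 3 months, in 25 libraries with 1 library per labelled sample. The groups were AMPKcKO runners (cKO, 6 libraries), wild-type runners (WT, 6), cKO mice at cage activity (6) and WT mice at cage activity (7). Each group held 3 males, and 3 females or, among WT cage mice, 4. The study compared knockout with wild-type tendon, with and without voluntary wheel running. The series title names AMPKα1, a catalytic subunit of the energy sensor AMPK encoded by Prkaa1, as the protein lost. The promoter that drove Cre, the cells it acted in and the exons removed are not given in the sources used here. The labels number the replicates within a group and sex and say nothing of litters or cages, so p-values measure only the spread between these samples.

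Collagens are secreted proteins whose chains wind into a triple helix built on a repeat of glycine followed by any pair of residues, often proline and hydroxyproline. Fibrillar collagens pack side by side into the fibrils that carry tensile load, and tendon is largely type I collagen made of Col1a1 and Col1a2 chains. The other families work around those fibrils: FACIT collagens sit on their surface, beaded-filament type VI collagen surrounds cells, network collagens build basement membranes, and transmembrane collagens stay at the cell surface. Each chain is made as a long precursor that is hydroxylated, folded with help from the chaperone Hsp47 (Serpinh1), secreted, trimmed by proteases and cross-linked by lysyl oxidases.

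The repeat that defines the family can be read in the genes themselves. The 4 coding stretches below each hold 54 bases and 6 repeats, and capitals mark the glycine codon that opens each repeat. Col1a2 and Col3a1 stand for the abundant fibrillar chains, and Col4a5 and Col8a1 are shown because they passed a test below. For Col1a2 and Col3a1 the stretch is a whole exon. They come from GENCODE M21 transcripts and lie on GRCm38 at chr6:4515481-4515534 (plus strand) for Col1a2, chr1:45325360-45325413 (plus strand) for Col3a1, chrX:141666850-141666903 (plus strand) for Col4a5 and chr16:57628039-57628092 (minus strand) for Col8a1.
Col1a2: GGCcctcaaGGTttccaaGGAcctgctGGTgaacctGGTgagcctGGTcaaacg
Col3a1: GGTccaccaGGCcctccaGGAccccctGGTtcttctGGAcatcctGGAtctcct
Col4a5: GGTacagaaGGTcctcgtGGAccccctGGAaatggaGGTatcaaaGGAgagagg
Col8a1: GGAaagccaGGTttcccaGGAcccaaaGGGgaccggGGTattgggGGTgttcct

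The classes differ in how far the repeat runs without a break in their coding sequence. In the 11 fibrillar genes the longest unbroken run of glycine triplets was 216 to 344 triplets (median 338), and each gene held 21 to 33 coding exons of exactly 54 bases. The 6 basement membrane genes had longest runs of 39 to 66 triplets and 1 to 3 such exons, so their helix is interrupted many times. FACIT genes had longest runs of 32 to 113 triplets, and the 3 short-chain genes (Col8a1, Col8a2 and Col10a1) had 60 to 61 triplets and no exon of 54 bases. Several chains are neighbours in the genome. Col4a1 and Col4a2 lie head to head on chromosome 8 with an overlap of 22 bases, Col4a4 and Col4a3 lie head to head 71 bases apart on chromosome 1, and Col4a6 and Col4a5 lie head to head 1308 bases apart on the X chromosome. Col3a1 and Col5a2 lie tail to tail on chromosome 1, 24614 bases apart.

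Library size was 13193228 to 45724243 counts. The tenocyte genes Thbs4 (569 to 2169 CPM), Tnmd (15.3 to 83.6 CPM) and Scx (11.5 to 208 CPM) had counts in every library, where CPM is the library-scaled count that edgeR gives after TMM scaling. Skeletal muscle marker genes took 3.75% to 19.4% of all counts, so the tendons carried muscle RNA in amounts that varied between libraries. In this bulk tissue, fewer cells of a type and less RNA per cell cannot be told apart. Prkaa1 had 16.3 to 22.6 CPM in cKO runners and 15.6 to 31.1 CPM in WT runners, and 13.9 to 21.2 CPM in cKO cage mice and 13.4 to 31.2 CPM in WT cage mice. As the mean of both activities its log2 fold change, cKO against WT, was -0.36 ± 0.12 (SE). By edgeR's quasi-likelihood test the unadjusted p was 0.00485 and the adjusted p over all genes 0.981. Mean Prkaa1 was 18.1 CPM in cKO and 23.0 CPM in WT, so the targeted gene was lower in cKO by its unadjusted p alone. It did not pass the adjusted threshold, and a count over the whole gene also holds reads from exons that a deletion leaves. An eGFP reporter sequence had at least 10 CPM in 6 of 6 cKO runners, 1 of 6 WT runners, 2 of 6 cKO cage mice and 0 of 7 WT cage mice. Counts of the reporters went against the label in 2 libraries: WT run male replicate 2 carried eGFP at 119.3 CPM, and cKO cage female replicate 3 had no Cre count, which allows up to 0.122 CPM. WT run female replicate 2 and WT run male replicate 3 stood apart from the rest on the second principal component.

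The collagen chains together took 1.67% to 4.32% of counts in cKO runners (median 1.84%) and 0.993% to 1.98% in WT runners (median 1.63%). In cage mice they took 0.786% to 2.49% in cKO (median 1.82%) and 0.669% to 2.80% in WT (median 2.08%). In runners the groups share the span from 1.67% to 1.98%, and in cage mice the cKO range lies inside the WT range. The highest share, 4.32%, was that of cKO run male replicate 2, which also had the lowest muscle share, 3.75%.

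Between genes, levels were compared as the authors' FPKM, which divides by gene length and library size. The 11 fibrillar genes made up 82.4% of the summed mean FPKM of all 44, the 6 beaded-filament genes 7.63% and the 6 basement membrane genes 6.01%. FACIT genes added 2.13%, the multiplexins Col15a1 and Col18a1 1.33%, the short-chain genes 0.283%, the transmembrane genes 0.120%, Col26a1 and Col28a1 0.0467% and the anchoring fibril gene Col7a1 0.0126%. Col1a1 led with a mean of 1183 FPKM over the 25 libraries, ahead of Col1a2 at 1070 and Col3a1 at 633 FPKM. These were the genes ranked 69, 76 and 114 of all genes by mean FPKM. Col3a1 encodes type III collagen, which forms thin fibrils and is known to increase in healing tendon. Below them stood Col4a1 (125 FPKM), Col6a2 (118), Col6a1 (100), Col4a2 (98.1), Col5a2 (70.9), Col6a3 (66.5) and Col5a1 (61.2). Type V chains (Col5a1, Col5a2, Col5a3) start fibrils and limit their width, and Col5a3 averaged 30.3 FPKM.

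The surface collagens Col12a1 and Col14a1, which bind fibrils and are known to organise them in tendon, averaged 30.5 and 16.1 FPKM. Cartilage chains were uneven in these samples: Col11a2 averaged 36.0 FPKM and Col11a1 19.0 FPKM, whereas Col2a1, the main chain of cartilage, averaged 1.63 FPKM. Col22a1, a FACIT collagen known from the junction of muscle and tendon, averaged 10.6 FPKM. At the low end Col6a4, Col9a1 and Col19a1 averaged 0.0792, 0.0664 and 0.0304 FPKM. Of the 44 genes, 41 had enough counts to be tested, and Col9a1, Col9a2 and Col19a1, all FACIT genes, did not. Their highest single-library values were 1.82 CPM for Col9a1, 0.814 CPM for Col9a2 and 0.375 CPM for Col19a1.

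**Figure D1:**
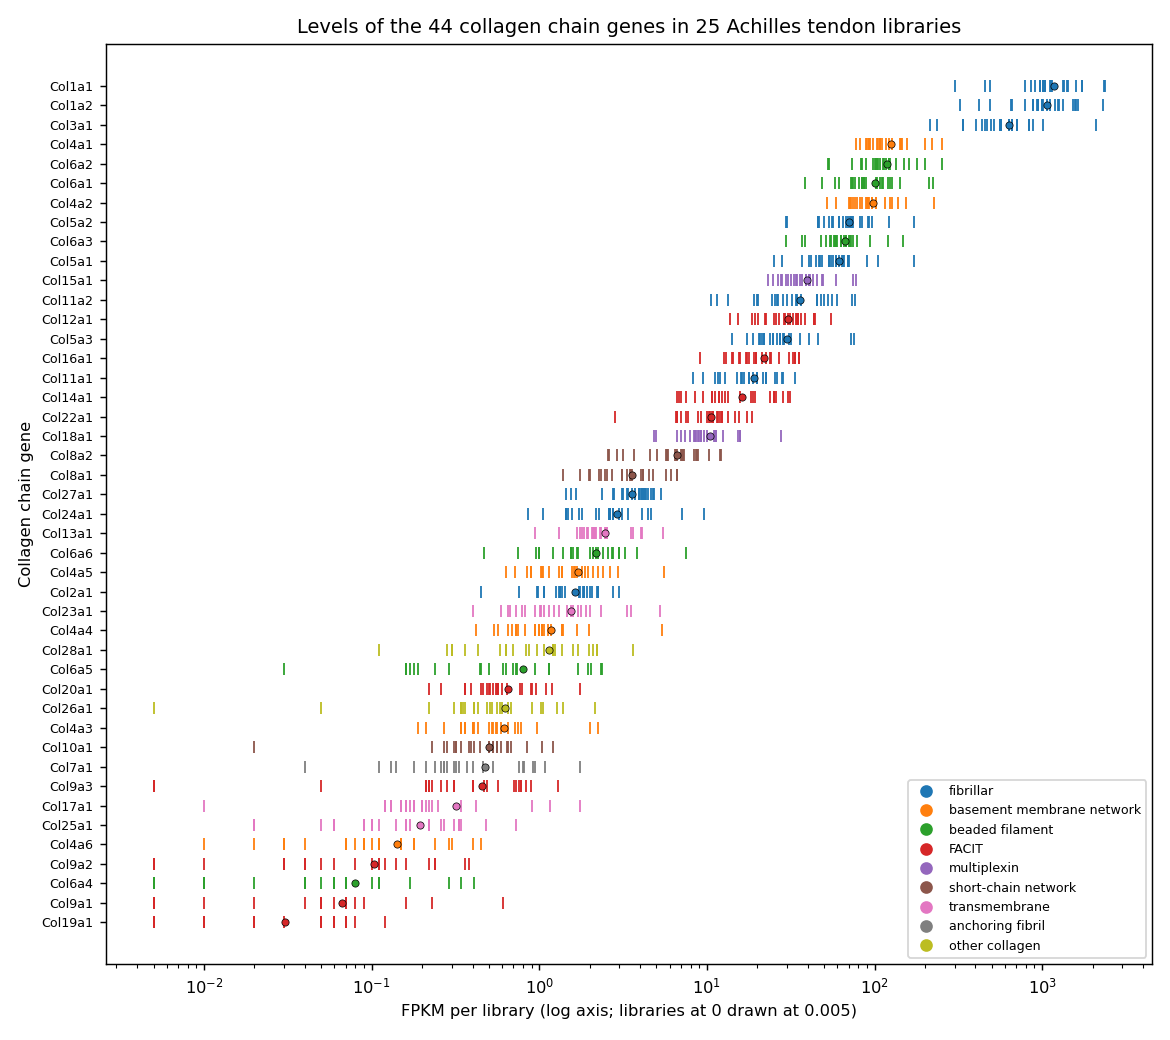
FPKM of each of the 44 collagen chain genes in each of the 25 libraries (ticks, log axis; libraries at 0 are drawn at 0.005) with the mean as a dot, ordered by mean and coloured by class. Col1a1, Col1a2 and Col3a1 have the highest means, 1183, 1070 and 633 FPKM, and Col19a1 has the lowest, 0.0304 FPKM.

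Between the sexes 2 collagen chains differed. Of the 41 tested, Col4a5 was higher and Col14a1 lower in males than in females (edgeR's quasi-likelihood test with Benjamini-Hochberg adjustment over 19155 genes, called at an adjusted p under 0.05). In the same comparison 0.616% of all genes were called. Over the list 24 of 41 genes had a positive fold change with a median of 0.06 on the log2 scale, beside 49.4% positive and a median of -0.003 over all genes. By unadjusted p under 0.05, 5 collagen chains were higher and 5 lower, beside 4.52% and 5.57% of all genes.

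Col4a5 (ENSMUSG00000031274, chrX:141475385-141689234, plus strand) encodes a basement membrane chain that pairs with Col4a3 and Col4a4, or with Col4a6 in the sheath around smooth muscle. It had 5.49 to 21.6 CPM in males (median 11.4) and 3.54 to 7.94 CPM in females (median 6.02). Among cKO runners and among WT cage mice every male was above every female, while in WT runners and in cKO cage mice the lowest male lay among the females. The means were 11.9 ± 4.31 CPM in 12 males and 5.97 ± 1.41 CPM in 13 females (SD), and the log2 fold change, male against female, was 0.98 ± 0.16 (SE; adjusted p 0.00175 by edgeR). All 6 basement membrane genes had a positive male against female fold change, with a median of 0.43, but Col4a5 alone was called: Col4a3 had 0.64 ± 0.23 (adjusted p 0.293), Col4a6, the X-linked neighbour, 0.54 ± 0.39 (adjusted p 0.703), and Col4a1 0.22 ± 0.14 (adjusted p 0.645).

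Col14a1 (ENSMUSG00000022371, chr15:55307750-55520803, plus strand), which encodes type XIV collagen on the fibril surface, ran the other way. Males had 39.7 to 89.2 CPM (median 53.8) and females 60.8 to 144.4 CPM (median 97.2). Every male was below every female among cKO runners (54.3 to 89.2 CPM in males, 97.2 to 144.4 CPM in females) and among cKO cage mice (40.0 to 51.7 CPM in males, 86.0 to 135.3 CPM in females), and the sexes overlapped in both WT groups. The means were 57.9 ± 14.5 CPM in males and 96.2 ± 29.2 CPM in females (SD), with a log2 fold change of -0.74 ± 0.15 (SE; adjusted p 0.00915 by edgeR). Col12a1, the other abundant FACIT gene, had -0.13 ± 0.17 (SE; adjusted p 0.865). An annotated antisense transcript and a processed transcript overlap Col14a1 on the opposite strand, and the strand of counting is not given in the sources used here.

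Next in rank and not called were Col24a1, a fibrillar chain known from bone, at 0.56 ± 0.15 (SE; adjusted p 0.0980), with 11.6 to 21.3 CPM in males (median 16.6) and 4.80 to 16.6 CPM in females (median 11.4), Col8a1 at -0.39 ± 0.14 (adjusted p 0.311) and Col6a5, a type VI chain, at -1.06 ± 0.45 (adjusted p 0.401). Without the filter on low counts Col24a1, Col6a5 and Col6a6 were called as well, in DESeq2 Col24a1 was, in limma-voom Col24a1 and Col3a1 were, and with a muscle covariate Col24a1, Col4a3 and Col6a6 were. Over all genes these fits called 445, 251, 442 and 204 in that order, beside 118 in the main fit. The main type I chains gave male against female values close to 0, at 0.03 ± 0.22 for Col1a1 and 0.02 ± 0.21 for Col1a2 (SE). Both calls were kept without any single library, without the 2 libraries against their label and without the 2 that stood apart, and both were missed when FPKM were tested on a log2 scale in place of counts (adjusted p 0.392 for Col4a5 and 0.135 for Col14a1 by limma with a pseudocount of 1). Schwann cell markers had a negative fold change in 10 of 10 genes (median -1.31), with a summed level of 56.2 to 513 CPM in males and 74.3 to 1502 CPM in females and no gene of the list at 0, and skeletal muscle markers had a positive one in 18 of 22 genes (median 0.32), with none at 0. Tenocyte markers were positive in 3 of 10 (median -0.19), with 4 lower and 0 higher at an unadjusted p under 0.05. Macrophage markers were positive in 0 of 10 (median -0.26) and mural cell markers in 2 of 10 (median -0.33). The other way, adipocyte markers were positive in 7 of 10 (median 0.15) and endothelial markers in 6 of 10 (median 0.12). Chondrocyte markers were positive in 7 of 9 (median 0.45) and bone markers in 5 of 6 (median 0.575), with 1 bone gene called. The part of these cells in the collagen values was not tested, apart from the muscle covariate.

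**Figure D2:**
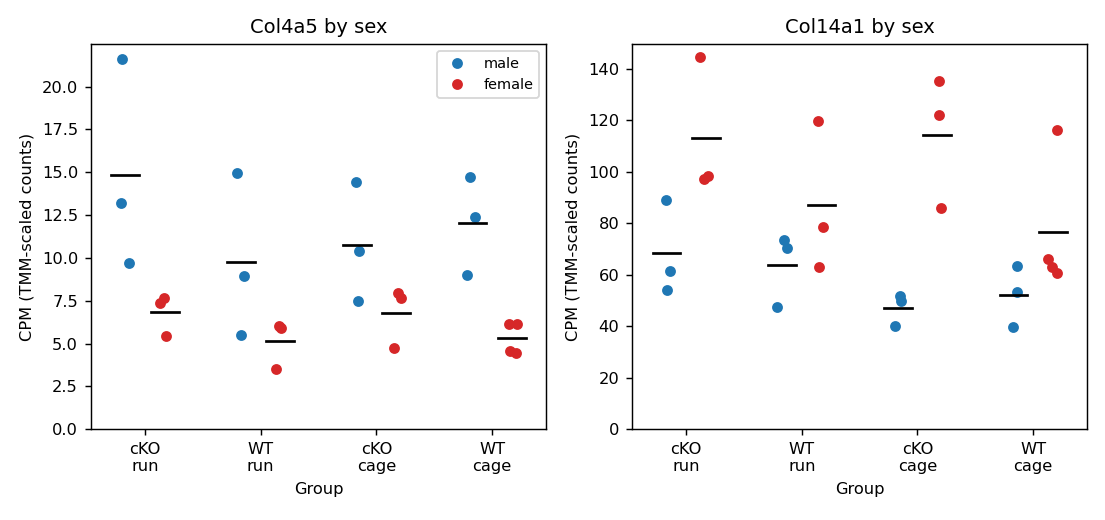
CPM of Col4a5 and Col14a1 in each library, by group, with males left of females in each group and a black line at the mean of each sex. Col4a5 averages 11.9 CPM in males and 5.97 CPM in females, and Col14a1 57.9 CPM in males and 96.2 CPM in females.

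In runners the collagen fold changes, cKO against WT, were mostly positive and mostly small, and no collagen chain passed the test. Of 41 chains tested, 38 had a positive log2 fold change with a median of 0.39, beside 51.3% of all genes and a median of 0.01. None was called by edgeR, DESeq2 or limma-voom, and 0% of all genes were called by edgeR. By unadjusted p under 0.05, 12 chains were higher and 0 lower, while 6.52% of all genes were higher and 4.83% lower at that level. All 11 fibrillar, all 6 beaded-filament and all 6 tested FACIT genes had positive values, with medians of 0.36, 0.45 and 0.29, as did 5 of 6 basement membrane genes with a median of 0.43. In all 41 chains the cKO and WT runners overlapped. The share of all genes that overlap was not counted, so this is not read as a trait of the chains.

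Among the core chains of the tendon fibril, Col1a1 had 4906 to 9453 CPM in cKO runners (median 5792) and 2744 to 5934 CPM in WT runners (median 5433), a log2 fold change of 0.34 ± 0.32 (SE; adjusted p 0.667 by edgeR). Col1a2 had 4021 to 8148 CPM in cKO runners (median 4833) and 2447 to 4909 CPM in WT runners (median 4510), or 0.36 ± 0.30 (adjusted p 0.622). For both type I genes the medians lie close together, and cKO run male replicate 2 is the highest library and WT run female replicate 2 the lowest. Col3a1 had 2397 to 6399 CPM in cKO runners (median 2824) and 1578 to 3637 CPM in WT runners (median 2075), or 0.54 ± 0.27 (adjusted p 0.440). The fibril-starting chains followed, Col5a1 with 377 to 972 CPM in cKO runners (median 559) and 269 to 513 CPM in WT runners (median 390), or 0.55 ± 0.22 (adjusted p 0.401), and Col5a2 with 389 to 729 CPM in cKO runners (median 451) and 296 to 488 CPM in WT runners (median 372), or 0.40 ± 0.20 (adjusted p 0.451). Of 6 cKO runners 1 lay above every WT runner for Col3a1, 4 for Col5a1 and 2 for Col5a2. The highest WT runner of all 3 genes was WT run male replicate 2, the WT library that carried eGFP.

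Around the fibrils, the type VI chain Col6a1 had 338 to 517 CPM in cKO runners (median 415) and 291 to 391.6 CPM in WT runners (median 307), or 0.33 ± 0.19 (SE; adjusted p 0.491). Col12a1 had 158 to 372 CPM in cKO runners (median 263) and 124 to 303 CPM in WT runners (median 228), or 0.20 ± 0.25 (adjusted p 0.750). Col14a1 gave 0.23 ± 0.21 (adjusted p 0.650), with 54.3 to 144.4 CPM in cKO runners and 47.6 to 119.7 CPM in WT runners. For Col12a1 and Col14a1 the groups overlap over most of their range, while for Col6a1 the WT median lies below the lowest cKO runner.

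The smallest p-values in runners belonged to chains well below the fibril chains in level. Col23a1, a transmembrane collagen, had 5.94 to 20.03 CPM in cKO runners (median 10.1) and 4.90 to 7.47 CPM in WT runners (median 5.59), a log2 fold change of 0.93 ± 0.26 (SE; adjusted p 0.363 by edgeR). All cKO runners but replicate 3 of the females lay above all WT runners. Col18a1, a basement membrane multiplexin and the source of the fragment endostatin, had 35.1 to 93.0 CPM in cKO runners (median 55.8) and 31.0 to 50.1 CPM in WT runners (median 34.9), or 0.68 ± 0.19 (adjusted p 0.366). Col28a1, a collagen known from the sheaths of peripheral nerve, had 2.81 to 11.5 CPM in cKO runners (median 5.52) and 1.10 to 3.51 CPM in WT runners (median 2.53), or 1.42 ± 0.42 (adjusted p 0.366). On the negative side the smallest p was that of Col25a1, a transmembrane collagen needed for motor innervation of muscle in mice, with 0.0797 to 1.11 CPM in cKO runners (median 0.685) and 0.580 to 3.73 CPM in WT runners (median 0.955), or -1.001 ± 0.642 (adjusted p 0.528). At the level of Col25a1 a few reads set the value of a library, and part of the Col18a1 gene overlaps Slc19a1 on the opposite strand.

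Marker lists of other cell types shifted in the same comparison, with 0 of their genes called by edgeR. Skeletal muscle markers had a negative fold change, cKO against WT runners, in 22 of 22 genes (median -0.72) and summed levels of 26680 to 115800 CPM in cKO and 69000 to 253500 CPM in WT runners. Schwann cell markers were positive in 10 of 10 (median 1.58; summed level 112 to 1502 CPM in cKO and 81.6 to 323 CPM in WT runners), mural cell markers in 10 of 10 (median 0.61; 586 to 1423 CPM in cKO and 548 to 727 CPM in WT runners) endothelial markers in 10 of 10 (median 0.28; 384 to 780 CPM in cKO and 383 to 502 CPM in WT runners) and adipocyte markers in 10 of 10 (median 0.36; 1316 to 5099 CPM in cKO and 1236 to 2755 CPM in WT runners). Tenocyte markers were positive in 4 of 10 (median -0.003; 1924 to 4504 CPM in cKO and 1299 to 4054 CPM in WT runners), and no gene of these lists was at 0. Scx, which is on the tenocyte list, gave 2.36 ± 0.53 (SE; adjusted p 0.363 by edgeR), far from the median of that list. Scx had 111.8 to 207.6 CPM in cKO runners, all of which carried eGFP. WT runners, most of which did not, had 11.53 to 105.1 CPM (median 18.29). In cKO cage mice, only some of which carried eGFP, Scx had 18.04 to 144 CPM (median 29.05). The median in WT cage mice, none of which carried it, was 21.56 CPM. Whether Scx goes with eGFP carriage or with the genotype was not tested. With a muscle covariate in the fit, 36 of 41 collagen chains were positive with a median of 0.26 and 8 had an unadjusted p under 0.05. With eGFP carriage as a covariate, 32 of 41 were positive with a median of 0.27 and 0 had an unadjusted p under 0.05. Without cKO run male replicate 2 the collagen median was 0.26 with 35 chains positive and 3 at an unadjusted p under 0.05. In limma-voom it was 0.23 with 34 positive and 7 at that level. Without the 2 libraries that stood apart, both of them WT runners, it was 0.28 with 35 positive and 6 at an unadjusted p under 0.05. Without the 2 libraries against their label it was 0.46 with 38 positive. Whether eGFP carriage itself or the genotype goes with the collagen values cannot be told apart here, since every cKO runner carried it and 5 of 6 WT runners did not.

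At cage activity the collagen chains lay on the other side of 0 and none approached the threshold. Of 41, 6 had a positive fold change, cKO against WT, with a median of -0.15, beside 50.5% of all genes and a median of 0.00. None was called by edgeR, DESeq2 or limma-voom, and 0% of all genes were called by edgeR. By unadjusted p under 0.05, 0 collagen chains were higher and 0 lower, beside 0.475% and 0.658% of all genes. All 11 fibrillar genes were negative with a median of -0.13. In the limma-voom fit with quality weights 17 of 41 were positive and the median was -0.05, and leaving out single libraries gave 5 to 16 positive with medians of -0.24 to -0.05, the 16 without WT cage female replicate 1.

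At cage activity Col1a1 had 3611 to 9359 CPM in cKO (median 6869) and 1849 to 13640 CPM in WT mice (median 7116), a log2 fold change of -0.21 ± 0.31 (SE; adjusted p 1 by edgeR). Col1a2 had 2929 to 7785 CPM in cKO (median 5495) and 1729 to 8139 CPM in WT (median 6193). For both genes the cKO range lies inside the WT range, and for Col1a1 the lowest and the highest of all 25 libraries were WT cage mice. Col3a1 had 1471 to 2914 CPM in cKO (median 2155) and 1007 to 3771 CPM in WT (median 2594), Col5a1 had 308 to 480 CPM in cKO (median 375) and 222 to 673 CPM in WT (median 424), and Col5a2 had 249 to 440 CPM in cKO (median 353) and 198 to 578 CPM in WT (median 397). Their fold changes were -0.13 ± 0.26, -0.13 ± 0.21 and -0.12 ± 0.19 (SE). Col6a1 had 210 to 463 CPM in cKO (median 318) and 200 to 555 CPM in WT (median 333), and Col12a1 had 175 to 396 CPM in cKO (median 221) and 143 to 406 CPM in WT (median 277). The smallest p-values were those of Col24a1, with 6.61 to 16.9 CPM in cKO (median 11.5) and 4.80 to 21.3 CPM in WT (median 13.9), at -0.33 ± 0.21, and of Col4a6, with 0.286 to 1.12 CPM in cKO (median 0.665) and 0.112 to 0.688 CPM in WT (median 0.443), at 0.83 ± 0.53, both with an adjusted p of 1. At cage activity the muscle markers were positive in 15 of 22 genes (median 0.05). The Schwann cell markers were positive in 0 of 10 (median -0.31) and the adipocyte markers in 1 of 10 (median -0.08). Those of macrophages were positive in 10 of 10 (median 0.19), of mural cells in 8 of 10 (median 0.26) and of endothelial cells in 8 of 10 (median 0.13). Tenocyte markers were positive in 3 of 10 (median -0.06). The part of these cells was not tested, apart from the muscle covariate.

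**Figure D3:**
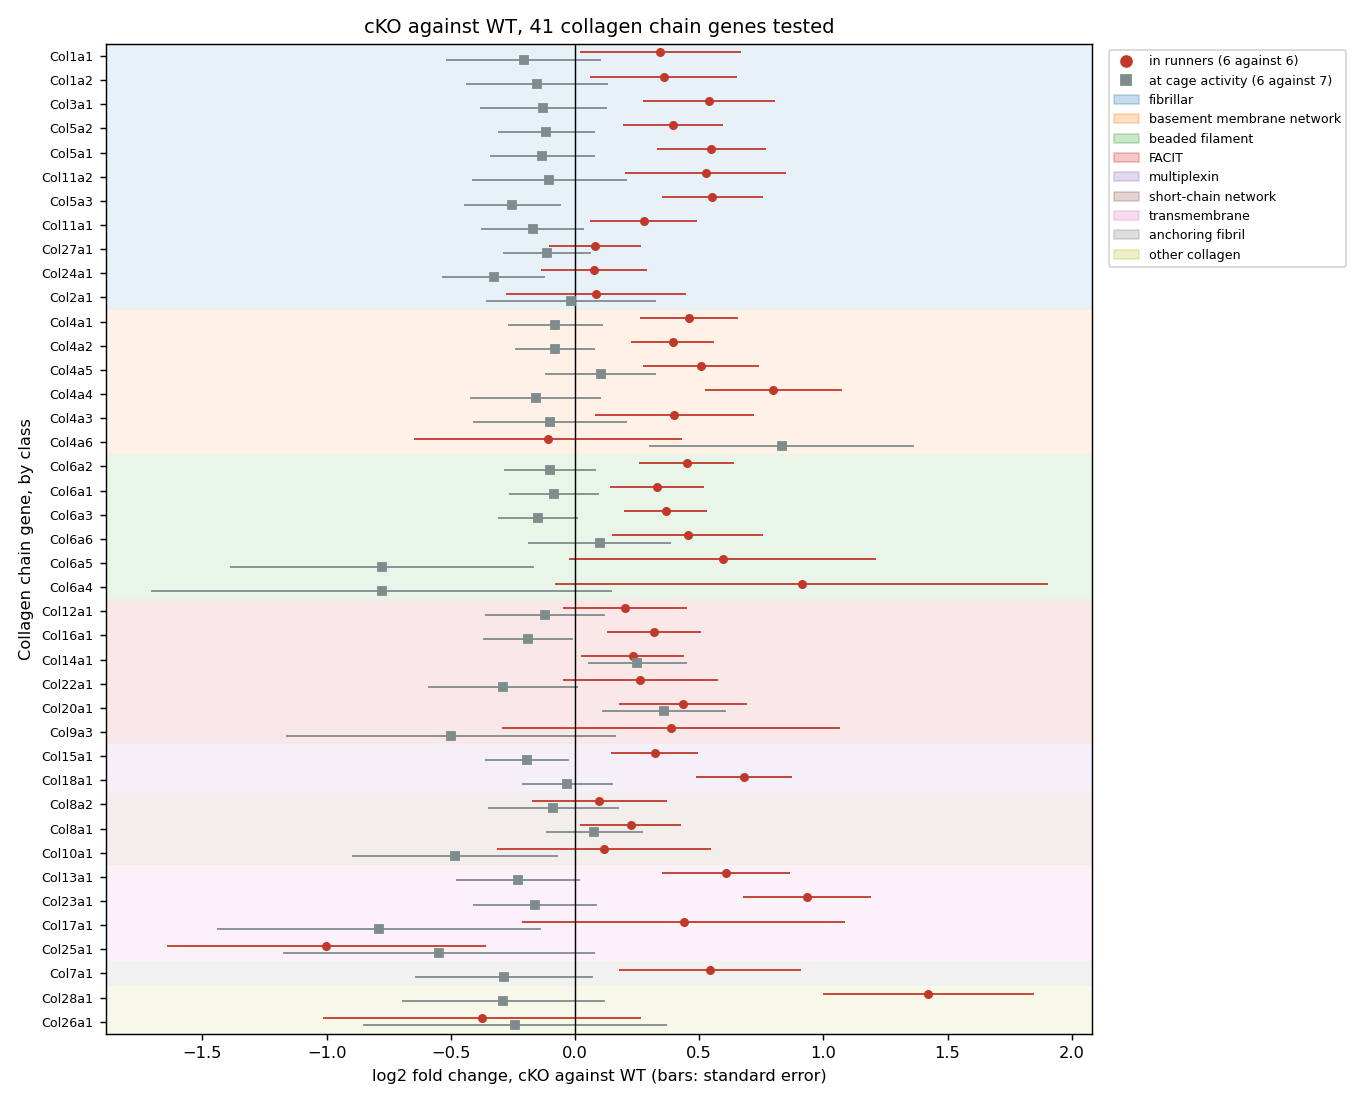
Log2 fold change, cKO against WT, of the 41 tested collagen chain genes in runners (red dots, 6 against 6 libraries) and at cage activity (grey squares, 6 against 7), with standard errors, ordered by class. The runner values are positive for 38 of 41 genes with a median of 0.39 and the cage values for 6 of 41 with a median of -0.15, and no gene was called in either.

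The difference between those genotype effects was itself tested as the genotype-by-running interaction, and no collagen chain passed. Of 41 chains 37 had a positive interaction with a median of 0.51, beside 51.7% of all genes and a median of 0.02. None was called by edgeR, DESeq2 or limma-voom, and 0% of all genes were called. By unadjusted p under 0.05, 10 were positive and 0 negative, beside 4.51% and 2.68% of all genes. That count, in either direction, was 3 with the eGFP covariate, 4 in limma-voom and 4 without cKO run male replicate 2. It was 6 with the muscle covariate, 6 without the 2 libraries that stood apart and 15 without the 2 against their label. Medians in these fits ran from 0.31 in limma-voom to 0.56 without the 2 libraries against their label. The smallest p-values were those of Col23a1 at 1.09 ± 0.36, Col28a1 at 1.71 ± 0.59 and Col5a3 at 0.80 ± 0.28 (SE; adjusted p 0.672 for each by edgeR), and on the negative side of Col4a6 at -0.94 ± 0.77 (adjusted p 0.722). Col1a1 gave 0.55 ± 0.45 and Col3a1 0.67 ± 0.37, and for Col14a1 the interaction was -0.02 ± 0.29. Beside the runner values of Col23a1 above, cage mice had 3.04 to 7.83 CPM in cKO (median 4.93) and 3.64 to 10.3 CPM in WT (median 5.37), and runners had 0.0855 to 2.03 CPM of Col4a6 in cKO (median 0.599) and 0.583 to 1.31 CPM in WT (median 0.719). The groups overlap in both genes. The interaction uses the same cKO runners as the comparison within runners, so its values are not a separate observation. Adipocyte and Schwann cell markers were also positive in 10 of 10 genes each for the interaction (medians 0.46 and 1.81). Muscle markers were positive in 0 of 22 (median -0.77). Those of mural cells were positive in 9 of 10 (median 0.46) and of endothelial cells in 7 of 10 (median 0.145). Macrophage and tenocyte markers were positive in 6 of 10 each (medians 0.012 and 0.085). The part of these cells was not tested apart from the muscle covariate, with which 35 collagen chains were positive (median 0.40). As the mean of both activities, 32 of 41 chains were positive, cKO against WT, with a median of 0.13 beside 50.8% and 0.00 over all genes, and 0 were called, as against 0.00522% of all genes. The smallest p-values there were those of Col18a1 at 0.33 ± 0.13, Col20a1, a FACIT chain, at 0.40 ± 0.18 and Col23a1 at 0.39 ± 0.18, and on the negative side of Col25a1 at -0.78 ± 0.45 (adjusted p 0.981 for each). At cage activity Col18a1 had 31.1 to 52.2 CPM in cKO (median 41.9) and 34.9 to 59.3 CPM in WT (median 42.3), and Col25a1 0.195 to 0.675 CPM in cKO (median 0.369) and 0.0532 to 1.68 CPM in WT (median 0.463), so the cKO range of Col25a1 lies inside the WT range. By unadjusted p under 0.05, 3 were higher and 0 lower, beside 2.24% and 1.53% of all genes, and DESeq2 and limma-voom called 0.

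Running raised 1 collagen chain at the edge of the threshold. Col8a1 (ENSMUSG00000068196, chr16:57624258-57754737, minus strand) encodes a short-chain network collagen found in vessel walls and in the membrane under the corneal endothelium. Runners had 12.6 to 29.4 CPM (median 16.4) and cage mice 9.10 to 19.6 CPM (median 12.4). Among males every runner, from 12.6 CPM up, lay above every cage mouse, whose highest was 12.4 CPM, and among cKO females the 3 runners lay above the 3 cage mice (22.2 to 28.6 CPM in runners, 16.6 to 19.6 CPM in cage mice). WT females overlapped. The means were 19.3 ± 6.22 CPM in 12 runners and 13.5 ± 3.65 CPM in 13 cage mice (SD), and the log2 fold change as the mean of both genotypes was 0.54 ± 0.14 (SE; adjusted p 0.04999 by edgeR). It was 0.61 ± 0.20 in cKO (adjusted p 0.221) and 0.47 ± 0.20 in WT (adjusted p 0.420), so neither genotype passed by itself.

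That Col8a1 call rested on the setting. It was made without a filter on low counts, with a stricter filter and in DESeq2 (adjusted p 0.0124), and it was missed in limma-voom (adjusted p 0.0638), on both FPKM scales, without the sex term (adjusted p 0.122), with RLE scaling (adjusted p 0.0508), with a muscle covariate (0.52, adjusted p 0.0540), with the share of mitochondrial rRNA as a covariate (0.47, adjusted p 0.287) and with eGFP carriage as a covariate (0.28, adjusted p 0.655). Of the 25 fits without 1 library, 5 kept the call and 20 missed it, at adjusted p 0.0542 to 0.107. Without the 2 libraries that stood apart the Col8a1 value was 0.56 (adjusted p 0.0793), and without the 2 against their label 0.44 (adjusted p 0.0613). The call was also missed without the 2 cage libraries of the less common project prefix. The highest Col8a1 library, at 29.4 CPM, was WT run male replicate 2, which is 1 of those against its label. Mitochondrial rRNA took 20.8% ± 4.61 of counts in runners and 24.4% ± 3.85 in cage mice (SD). Mural cell markers, which include cells of vessel walls, were positive in 8 of 10 genes for running (median 0.17), with summed levels of 548 to 1423 CPM in runners and 626 to 1306 CPM in cage mice and none at 0. Of these mural genes 1 was called higher in runners (adjusted p 0.0233 by edgeR), and 1 was lower at an unadjusted p under 0.05. Macrophage markers were positive in 10 of 10 (median 0.52), 7 of them at an unadjusted p under 0.05, with summed levels of 246 to 771 CPM in runners and 195 to 620 CPM in cage mice. Schwann cell markers were positive in 10 of 10 (median 1.10), with 81.6 to 1502 CPM in runners and 56.2 to 575 CPM in cage mice. The median summed mural level was 685 CPM in runners and 723 CPM in cage mice. The other way, endothelial markers were positive in 3 of 10 (median -0.06), with 1 lower at an unadjusted p under 0.05. So were tenocyte markers in 3 of 10 (median -0.22) and muscle markers in 6 of 22 (median -0.12). The part of these cells in the Col8a1 value was not tested, apart from the muscle covariate.

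Over all collagen chains, running as the mean of both genotypes gave 28 of 41 positive values with a median of 0.10, beside 52.2% and 0.01 over all genes, and the 1 call in 41 stood beside 1.43% of all genes. By unadjusted p under 0.05, 3 were higher and 1 lower, beside 7.29% and 7.59% of all genes. The count of positive values was lower in several other fits: 20 with a mitochondrial rRNA covariate (median 0.00), 22 with a muscle covariate (median 0.02), 23 with an eGFP covariate (median 0.04) and 23 without cKO run male replicate 2 (median 0.05). Without WT cage female replicate 1 the median was 0.17, with 28 of 40 positive. The count was higher in other fits, at 31 without the 2 libraries that stood apart (median 0.13) and 34 on both FPKM scales. On the FPKM scales 75.4% (pseudocount 1) and 73.2% (0.1) of all genes were positive too. Col23a1 was next, with 4.90 to 20.03 CPM in runners and 3.04 to 10.3 CPM in cage mice and a log2 fold change of 0.64 ± 0.18 (SE; adjusted p 0.0792 by edgeR), and Col25a1 gave 0.96 ± 0.44 (adjusted p 0.303). Lower in runners was Col11a2, a fibrillar chain of cartilage type XI collagen, with 23.7 to 133.1 CPM in runners (median 74.8) and 42.6 to 220.9 CPM in cage mice (median 116.3), at -0.76 ± 0.23 (adjusted p 0.101). DESeq2 called both Col23a1 (adjusted p 0.0211) and Col11a2 (adjusted p 0.0231), as did limma-voom (adjusted p 0.0302 and 0.0268), and edgeR called both without WT cage female replicate 1. Chondrocyte markers were positive for running in 3 of 9 genes (median -0.15), with summed levels of 216 to 1149 CPM in runners and 232 to 1110 CPM in cage mice.

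Within cKO mice, running gave 35 of 41 positive collagen values with a median of 0.39, beside 53.9% and 0.03 over all genes. None was called by edgeR, against 0.0418% of all genes, and 11 were higher and 0 lower at an unadjusted p under 0.05, where 6.48% of all genes were higher and 7.07% lower. Without cKO run male replicate 2 the median was 0.25 with 33 positive, and 6 chains had an unadjusted p under 0.05. Without the 2 cage libraries of the less common project prefix the median was 0.33 with 32 positive, and 7 chains were at that level. With covariates for mitochondrial rRNA, muscle and eGFP carriage the medians were 0.17, 0.22 and 0.23 with 32, 30 and 28 positive, and 5, 5 and 1 chains had an unadjusted p under 0.05. In limma-voom the median was 0.19 with 31 positive, and 11 had an unadjusted p under 0.05. DESeq2 and limma-voom each called 1, Col23a1, where over all genes they called 208 and 384, and edgeR 8. Col23a1 had 5.94 to 20.03 CPM in cKO runners (median 10.1) and 3.04 to 7.83 CPM in cKO cage mice (median 4.93), a log2 fold change of 1.18 ± 0.26 (SE; adjusted p 0.0838 by edgeR). Of 6 cKO runners 5 lay above every cKO cage mouse, the exception being cKO run female replicate 3 with 5.94 CPM, and without that library the value was 1.35 (adjusted p 0.0283). Without WT cage female replicate 1 it was 1.17 (adjusted p 0.0375). Col28a1 gave 1.29 ± 0.42 and Col8a1 0.61 ± 0.20 (adjusted p 0.221 for each), and on the negative side Col11a2 gave -0.44 ± 0.33 (adjusted p 0.561), with 49.1 to 133.1 CPM in cKO runners (median 81.2) and 42.6 to 204.0 CPM in cKO cage mice (median 118.5). The Schwann cell markers were positive in 10 of 10 genes here (median 2.10) and the muscle markers in 0 of 22 (median -0.51). Col1a1 gave -0.03 ± 0.32, Col3a1 0.61 ± 0.27 and Col5a1 0.57 ± 0.22 (SE).

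Within WT mice, running gave 9 of 41 positive collagen values with a median of -0.17, beside 50.4% and 0.00 over all genes. None was called by edgeR, against 0.131% of all genes, and 2 were higher and 2 lower at an unadjusted p under 0.05, beside 4.64% and 5.11% of all genes. DESeq2 called 1, Col11a2, and limma-voom 0, where over all genes they called 157 and 90, and edgeR 25. Col11a2 had 23.7 to 100.1 CPM in WT runners (median 51.3) and 74.4 to 220.9 CPM in WT cage mice (median 115.4), a log2 fold change of -1.07 ± 0.32 (SE; adjusted p 0.206 by edgeR), and 4 of 6 WT runners lay below every WT cage mouse. Its partner Col11a1 gave -0.43 ± 0.21 (adjusted p 0.500), Col8a1 0.47 ± 0.20 (adjusted p 0.420) and Col4a6 1.17 ± 0.53 (adjusted p 0.464), the last with 0.583 to 1.31 CPM in WT runners (median 0.719) and 0.112 to 0.688 CPM in WT cage mice (median 0.443). Col1a1 gave -0.58 ± 0.31 and Col1a2 -0.46 ± 0.29 (SE; adjusted p 0.575 and 0.625). Without the 2 libraries that stood apart, both of them WT runners, 15 of 41 chains were positive with a median of -0.18. Without WT cage female replicate 1, 16 of 40 were positive with a median of -0.08, and in limma-voom 17 of 41 with a median of -0.10. Marker lists moved here too, with 0 genes called: muscle markers were positive in 19 of 22 (median 0.24; summed level 69000 to 253500 CPM in WT runners and 30960 to 201600 CPM in WT cage mice) and macrophage markers in 10 of 10 (median 0.46; 246 to 605 CPM in WT runners and 195 to 617 CPM in WT cage mice). Endothelial markers were positive in 0 of 10 (median -0.14; 383 to 502 CPM in WT runners and 458 to 590 CPM in WT cage mice) and adipocyte markers in 1 of 10 (median -0.17; 1236 to 2755 CPM in WT runners and 1317 to 4369 CPM in WT cage mice). With the muscle covariate 8 of 41 collagen chains were positive (median -0.21), and the part of the other cells was not tested.

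**Figure D4:**
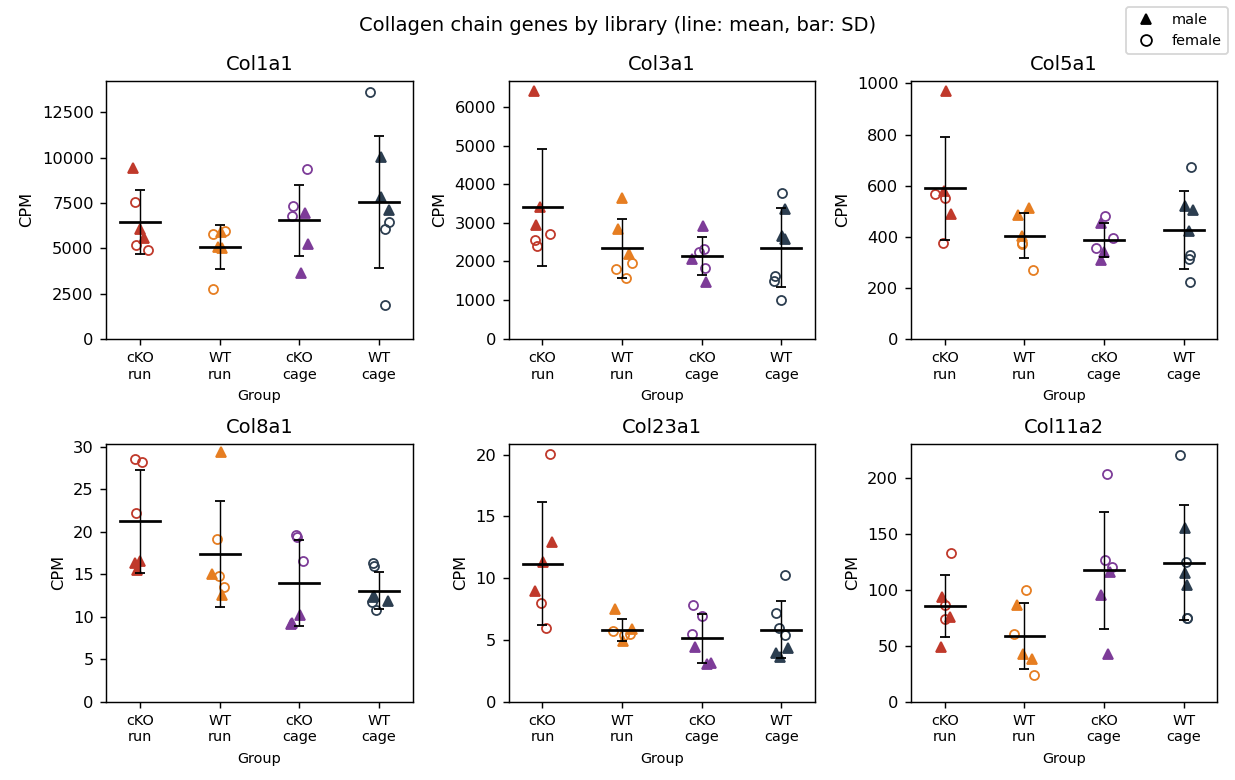
CPM of Col1a1, Col3a1, Col5a1, Col8a1, Col23a1 and Col11a2 in each library, by group (filled triangles male, open circles female; line, mean; bar, SD). In cKO runners 1 male library is highest for Col3a1 at 6399 CPM and for Col5a1 at 972 CPM, and Col8a1 runs from 12.6 CPM up in runners and from 9.10 CPM up in cage mice.

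The genes that build, cut and sense collagen were read beside the chains. The list for synthesis and assembly held 43 genes, all tested, among them prolyl and lysyl hydroxylases, the chaperone Serpinh1, procollagen proteases, lysyl oxidases and fibril-binding proteoglycans. Between cKO and WT runners 33 of 43 were positive with a median of 0.14 and 0 were called, the smallest p being that of Serpinh1 at 0.43 ± 0.14 (SE; adjusted p 0.387 by edgeR). At cage activity 16 of 43 were positive, and none was called in any genotype comparison. In males 39 of 43 were negative with a median of -0.12, and 1 was called: Adamts3, a protease that removes the amino-terminal propeptide of procollagen, was lower in males at -0.93 ± 0.17 (adjusted p 0.00485). For running as the mean of both genotypes the smallest p was that of Lum, a proteoglycan that binds fibrils, at 0.52 ± 0.15 (adjusted p 0.0787).

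Of 14 genes for collagen breakdown and uptake 12 were tested, and 0 were called in any comparison by edgeR. Male against female values were negative in 12 of 12 with a median of -0.21, the smallest p being that of the protease Mmp3 at -0.80 ± 0.28 (SE; adjusted p 0.280). In runners the smallest p, cKO against WT, was that of the gelatinase Mmp9 at 2.04 ± 0.73 (adjusted p 0.387). Of 10 collagen receptors 9 were tested. Running lowered Itga1, the α1 chain of a collagen-binding integrin, at -0.35 ± 0.07 as the mean of both genotypes (adjusted p 0.00616) and at -0.45 ± 0.09 in WT (adjusted p 0.0417), and raised Ddr1, a receptor tyrosine kinase that binds collagen, at 0.34 ± 0.09 (adjusted p 0.0498). The call of Itga1 over both genotypes held without each library in turn, and those of Itga1 in WT and of Ddr1 held in 6 of 25 such fits each. Of 15 other settings the call of Itga1 over both genotypes was lost in 3, both FPKM scales (-0.17 and -0.19, adjusted p 0.429 and 0.427) and the eGFP covariate (-0.34, adjusted p 0.136). The call of Itga1 in WT was lost in 11 of the 15 (adjusted p up to 0.475) and that of Ddr1 in 8 (adjusted p up to 0.382). In cKO mice Itga1 gave -0.26 ± 0.10 (SE; adjusted p 0.257), and the interaction for Itga1 was 0.19 ± 0.13 (adjusted p 0.688).

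Most pairs of related chains kept step over the 25 libraries. For 10 pairs, most of them chains of the same collagen type, Pearson's r and Spearman's rho of log2 CPM were tested by permutation with adjustment over the pairs. Col4a1 and Col4a2 had r = 0.97 and rho = 0.98, Col1a1 and Col1a2 r = 0.96 and rho = 0.93, Col6a1 and Col6a2 r = 0.94 and rho = 0.92, Col5a1 and Col5a2 r = 0.93 and rho = 0.91, Col3a1 and Col5a2 r = 0.92 and rho = 0.85, and Col6a1 and Col6a3 r = 0.90 and rho = 0.83. Each of these gave 1e-05, the smallest p that 100000 permutations can give (adjusted p 1.67e-05). Without the 2 libraries farthest from the median, r for these pairs was 0.96, 0.95, 0.92, 0.87, 0.84 and 0.84 in the same order. Within groups, as deviations from the 4 group means, r was 0.97 for Col4a1 and Col4a2, 0.96 for Col1a1 and Col1a2 and 0.89 for Col3a1 and Col5a2, and after the muscle covariate was removed it was 0.97, 0.98 and 0.90. Col3a1 and Col5a2 belong to type III and type V and are neighbours in the genome. All pairs share library depth and tissue makeup.

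Other pairs were looser. Col11a1 and Col11a2 had r = 0.65 and rho = 0.64 (permutation test, adjusted p 0.000657 and 0.0013). Col1a1 and Col3a1, the most abundant chains of different fibrillar types, had r = 0.46 (adjusted p 0.0286) and rho = 0.27 (adjusted p 0.238), so the relation did not pass the test by rank. The surface chains Col12a1 and Col14a1 had r = 0.24 (adjusted p 0.268), and Col8a1 and Col8a2, which can form a network together, had r = 0.20 (adjusted p 0.327). For Col8a1 and Col8a2 these values did not pass the test, and Col8a2 gave a male against female value of -0.21 ± 0.19 (SE) beside -0.39 ± 0.14 for Col8a1.

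**Figure D5:**
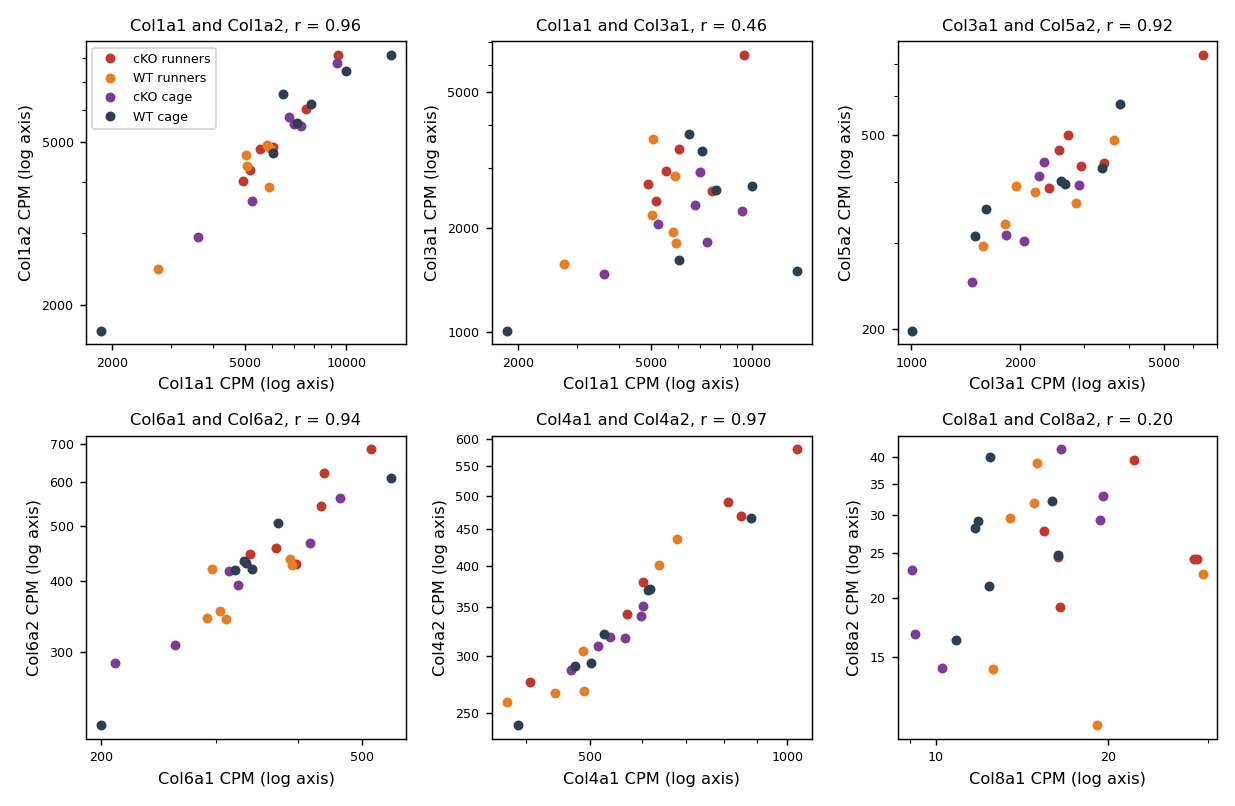
CPM of 6 pairs of collagen chains in 25 libraries, on log axes and coloured by group, with Pearson's r of log2 CPM above each panel. Col4a1 and Col4a2 lie along a line (r = 0.97), while Col1a1 and Col3a1 scatter (r = 0.46) and so do Col8a1 and Col8a2 (r = 0.20).

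Ratios of FPKM within a library set chains against each other on a length-scaled level. The ratio of Col1a1 over Col1a2 was 1.10 ± 0.122 (SD, n = 25; 0.875 to 1.49), where the type I molecule holds more α1 than α2 chains. That of Col4a1 over Col4a2 was 1.29 ± 0.180, of Col6a2 over Col6a1 1.21 ± 0.111 and of Col5a1 over Col5a2 0.863 ± 0.0981. The ratio of Col3a1 over Col1a1 was 0.670 ± 0.168 in runners and 0.462 ± 0.161 in cage mice (SD), a difference of 0.59 on the log2 scale (exact permutation test within genotype and sex, p = 0.00410, adjusted p 0.0615 over 30 ratio tests). It was 0.450 to 0.909 in runners and 0.145 to 0.715 in cage mice, so the ranges overlap. The ratio of Col14a1 over Col12a1 was 0.405 ± 0.121 in males and 0.674 ± 0.280 in females, a difference of -0.69 (exact permutation test, p = 0.00241, adjusted p 0.0615). The smallest p of a ratio for cKO against WT was that of Col5a1 over Col5a2, with 0.891 ± 0.0844 in cKO and 0.838 ± 0.106 in WT mice, a difference of 0.09 (exact permutation test, adjusted p 0.397). Without the 2 libraries that stood apart, the running difference of Col3a1 over Col1a1 was 0.55 (exact permutation test, p = 0.0206, adjusted p 0.0967). The difference of Col14a1 over Col12a1 between the sexes was then -0.655 (exact permutation test, p = 0.00546, adjusted p 0.0967). No ratio passed the adjusted threshold with or without those libraries, and these ratios were chosen after the values had been seen.

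The genes outside the family whose log2 CPM went most closely with Col1a1 were Sparc (r = 0.88), Creb3l1 (0.85), Aldh18a1 (0.82), Hand2 (0.81) and C1qtnf6 (0.79), over 25 libraries and among 12750 genes with a mean of at least 1 log2 CPM. Sparc encodes a collagen-binding matrix protein, Creb3l1 a membrane-bound transcription factor known for its role in bone collagen, and Aldh18a1 an enzyme of proline synthesis. These are descriptions of likeness across libraries that share depth and tissue makeup.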

How the data were processed

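The tools named in the submitters' processing notes, without a role, are RSEM 1.3.3, STAR 2.7.8a, cutadapt 2.3 and FastQC 0.11.8, and the genome is GRCm38 (mm10). The strand of counting and the annotation release are not given in the sources used here. The authors deposited RSEM expected counts per gene, which were whole numbers in every cell, so no rounding was needed, and a table of FPKM of the same 25 libraries. Counts were tested. FPKM served to compare levels between genes, to form ratios within a library and as an alternative. No per-sample column was left unused.

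In R 4.3.3, edgeR 4.0.16 kept 19155 genes by filterByExpr on the 4 groups, scaled by TMM and fitted the 4 group means with a sex term. Quasi-likelihood tests were two-sided, with Benjamini-Hochberg adjustment over all genes in each of 8 comparisons and calls at an adjusted p under 0.05. The 4 reporter entries stayed out. A standard error (SE) belongs to its log2 fold change and follows from the F statistic. Total counts of 13193228 to 45724243 per library limit the precision of chains with few counts, and zero limits are 3 counts and cover counting error only.

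Alternatives were RLE scaling, no filter and a stricter one (at least 1 CPM in 6 libraries), DESeq2 1.42.0, limma 3.58.1 (voom with quality weights, and log2 FPKM with a pseudocount of 1 or 0.1), no sex term, covariates for 22 muscle genes, mitochondrial rRNA or eGFP carriage, a replicate block, and fits without single libraries or groups of them. A test without the 2 libraries that stood apart was added for the ratios after the data had been seen. Libraries stood apart where a principal component lay over 5 median absolute deviations from the median. The code was tested on simulated data.

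The members and all gene lists were chosen with earlier results of these data known. Values are given for 8 core chains, called chains and the smallest p in each direction. Up to 3 chains per direction with an unadjusted p under 0.05 are named, otherwise the 1 with the smallest p, and for pathway lists the called genes or the 1 with the smallest p. Other chains were named after their values were seen. Gene positions, exons and coding sequence were read from the GENCODE M21 annotation and transcripts (GRCm38).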

Additional observations from a re-analysis of the deposited data

Results flagged for a closer look

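Within each group of 6 or 7 libraries, the highest and lowest CPM of 16 genes were set against the nearest other library and the range of the group. Of 64 sets of 1 gene in 1 group, 7 held a library far from the rest. The limit is passed by chance in about 1 in 20 independent sets of normally spread values. These sets share libraries and related chains, and some genes were chosen by p-values from these data. The count of 7 therefore cannot be set against that rate. In cKO run male replicate 2, which had the lowest muscle share of all libraries, Col3a1 was 6399 CPM (the next cKO runner had 3410), Col5a1 was 972.1 CPM (next 580.2) and Col5a2 was 729.4 CPM (next 500.7). In WT run female replicate 2, which stood apart on the second principal component, Col1a1 was low at 2744 CPM (the next WT runner had 5033). Col14a1 was 116.4 CPM in WT cage female replicate 1 (the next WT cage mouse had 66.3). Col25a1 was 3.725 CPM in WT run male replicate 3 (next 1.402) and 1.677 CPM in WT cage male replicate 2 (next 0.7108). Outside the gene tests, eGFP was 119.3 CPM in WT run male replicate 2, while the other WT libraries had at most 0.02187 CPM.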

How the results depend on the processing

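Counts of collagen chain genes called moved mainly in the comparison of running with cage mice as the mean of both genotypes, where the main count was 1: it was 0 with RLE scaling, log2(FPKM + 1), no sex term, a muscle, mitochondrial rRNA or eGFP covariate, a replicate block, and without the 2 libraries of the less common project prefix, the 2 against their label or the 2 that stood apart. It was 3 without a filter and in DESeq2, 2 in limma-voom, and 0 to 3 without single libraries (3 without WT cage female replicate 1, 2 without WT run male replicate 1). For running in cKO the main 0 became 4 without a filter, 1 in DESeq2 and limma-voom, and 0 to 1 without single libraries. For running in WT it became 1 without a filter and in DESeq2. Without a filter it was 4 between cKO and WT runners (Col18a1, Col23a1, Col28a1 and Col4a4) and 1 for the interaction (Col28a1). Calls over all genes rose as well without a filter, from 0 to 282 between cKO and WT runners and from 0 to 65 for the interaction. They rose from 8 to 574 for running in cKO, 25 to 197 for running in WT and 118 to 445 for sex. For running as the mean of both genotypes they rose from 273 to 715. For sex the main 2 became 5 without a filter or with the muscle covariate, 4 in limma-voom, 0 on both FPKM scales, and 2 to 3 without single libraries. The cause was not tested.

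The Col14a1 interaction, -0.02 as reported, changed sign to 0.22 and 0.24 on the FPKM scales, 0.11 with a replicate block, 0.14 without the libraries against their label, and to 0.009 to 0.107 in 13 of 25 fits without 1 library, which ran from -0.136 to 0.107. Over named genes, 1922 of 2067 repeats kept direction and side of the threshold, 96 lost and 32 gained a call, and 17 reversed. FPKM scaling moved the median of all genes by over 0.1: between cKO and WT runners to 0.12 (pseudocount 1) and 0.19 (0.1), where the collagen medians were 0.39 and 0.48.

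Same-numbered libraries did not deviate together (34 pairs, mean r -0.0082, range -0.20 to 0.21, 4 over 0.1; 4 of 25 libraries correlated best with their own number), so the replicate block is only an alternative. With the replicate block, Col8a1 for running was 0.51 (adjusted p 0.1099). Depth limits chains under about 1 CPM, such as Col25a1 and Col4a6.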
